A study of Rattus norvegicus with 12 samples.

Results

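Follistatin, the activin and inhibin subunits and the TGF-beta ligands were followed through 9 genes: Fst, Fstl1, Inha, Inhba, Inhbb, Ltbp1, Tgfb1, Tgfb2 and Tgfb3. They were taken as every probe that carries one of these gene names on the array, which gave 12 of the 41012 non-control probes and 9 of 35535 genes or unnamed transcripts. Fst had 2 probes, Inhbb had 3 and each other gene had 1. The set was chosen by the log2 ratios measured on these arrays, so its values are a description. No p-value is given for a member, and limma's calls of members appear only as counts. Of the 12 probes, 9 passed the filter on dim spots, and they stand for 7 of the 9 genes.

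The cells were F11, a hybrid line made by fusing rat sensory neurons with mouse neuroblastoma cells. After 3 h in low-serum medium (0.5%) they received forskolin at 10 µM, an activator of adenylyl cyclases, and were harvested 2, 4, 24 or 48 h later, with 3 samples for each time. Each sample, labelled with Cy3 (green), was hybridised to a rat oligonucleotide array with a common reference labelled with Cy5 (red), which came from F11 cells kept in low serum for 3 h and never given forskolin. All values are log2 ratios of forskolin over reference after loess normalization unless another quantity is named, with the SD over n = 3 arrays. The reference is 1 control RNA without a spread of its own, and the dyes were never swapped. A dye effect peculiar to a probe therefore remains in every ratio against the reference, and it cancels between times only where it is constant. Each of 3 slides held the 4 times of a replicate number, and each time lay at the same position on every slide, so position and time cannot be told apart. Nothing in the labels says that the replicates were separate cultures, so the p-values cover the spread of these 12 samples alone, part of which could be technical. The 12 samples hold no untreated cells harvested at 2, 4, 24 or 48 h. Forskolin therefore cannot be told apart from the added time in culture in any ratio. The share of mouse transcripts in a rat probe's signal is not known. A ratio of RNA from a culture cannot tell a change in the cells that make a transcript from a change per cell.

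The secreted ligands of the TGF-beta family are dimers that bring type I and type II receptor kinases together, and the receptors then phosphorylate Smad proteins that enter the nucleus. Activins are dimers of the beta subunits made by Inhba and Inhbb, and inhibins pair a beta subunit with the alpha subunit made by Inha. Follistatin binds activins and keeps them from their receptors, and the TGF-beta ligands are released in a latent complex in which a latent TGF-beta binding protein such as Ltbp1 anchors them to the matrix. Cyclic AMP acts on many promoters through CREB, which binds the cyclic AMP response element, or CRE.

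Of the marker genes of sensory neurons and other neurons, 14 of 16 stood well above background in green on all 12 arrays, Map2 and Rbfox3 being the exceptions. Of glial markers the same held for 1 of 10 (Sox10), with Aqp4, Gfap and S100b not well above background in either channel on any array. It held for 3 of 8 fibroblast and matrix markers and 0 of 7 leukocyte and endothelial markers. Of the 43379 non-control spots, 19889 to 21973 were well above background in green and 19504 to 23285 in red.

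The 2 Fst probes are shown because the highest ratios rest on them. They lie side by side on the minus strand of chromosome 2 in the rn3 build named by the files, at chr2:46471460-46471519 for A_44_P108588 and chr2:46471532-46471591 for A_43_P11465, with 12 bases between them. The exon is not stated, since rn3 gene models were not used here. The 60-base probes, 5′ to 3′, share no position and are separate readings of the transcript.
Fst A_44_P108588: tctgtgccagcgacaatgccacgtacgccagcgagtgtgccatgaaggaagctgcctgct
Fst A_43_P11465: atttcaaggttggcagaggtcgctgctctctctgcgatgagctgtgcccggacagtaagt

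For Inhbb, the brightest probe and the dimmest are shown because both carry the same gene name and their signals were far apart. A_44_P332702 lies on the minus strand of chromosome 13, from 32176427 to 32179058 in rn3. These ends span 2632 bases of the genome although the probe has 60. A_44_P288117 lies on the same strand at chr13:32176245-32176304.
Inhbb A_44_P332702: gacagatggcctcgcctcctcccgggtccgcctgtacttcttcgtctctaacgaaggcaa
Inhbb A_44_P288117: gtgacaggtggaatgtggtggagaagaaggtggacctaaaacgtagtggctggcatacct

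Follistatin RNA stood above the reference on all 12 arrays with both probes, and its ratio was highest at 4 h. With A_44_P108588 the log2 ratio was 2.93, 2.82 and 2.89 on the 3 arrays at 2 h. It was 5.14, 5.08 and 5.05 at 4 h, a mean of 5.09 ± 0.05 or 34.1-fold. It was 3.62, 3.64 and 3.49 at 24 h and 1.05, 1.20 and 1.08 at 48 h. No array of one time overlapped any array of another, and the order from high to low was 4, 24, 2 and 48 h. Among 17795 genes tested, the Fst ratio ranked 2nd at 2 h, 1st at 4 and 24 h and 164th at 48 h.

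The other probe, A_43_P11465, gave the same order of times with lower ratios. Its values were 1.90, 2.07 and 2.18 at 2 h and 4.76, 4.97 and 5.14 at 4 h, a mean of 4.96 ± 0.19 or 31.0-fold. At 24 h they were 2.75, 2.92 and 3.07, and at 48 h 0.46, 0.69 and 0.74. Its times did not overlap either. Within each time it was lowest on slide 1 and highest on slide 3, whereas A_44_P108588 kept no such order. The mean of A_44_P108588 was above that of A_43_P11465 by 0.83, 0.13, 0.67 and 0.48 at 2, 4, 24 and 48 h.

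The steps between times ran the same way in both probes and differed in size. From 2 to 4 h the ratio stepped up by 2.21 with A_44_P108588 and by 2.91 with A_43_P11465, the second largest upward step of the 17795 genes for the former, which stands for the gene. From 4 to 24 h the means differed by -1.51 and -2.04, and from 24 to 48 h by -2.47 and -2.29. With A_44_P108588 this last step was the largest downward one of the 17795 genes.

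**Figure D1:**
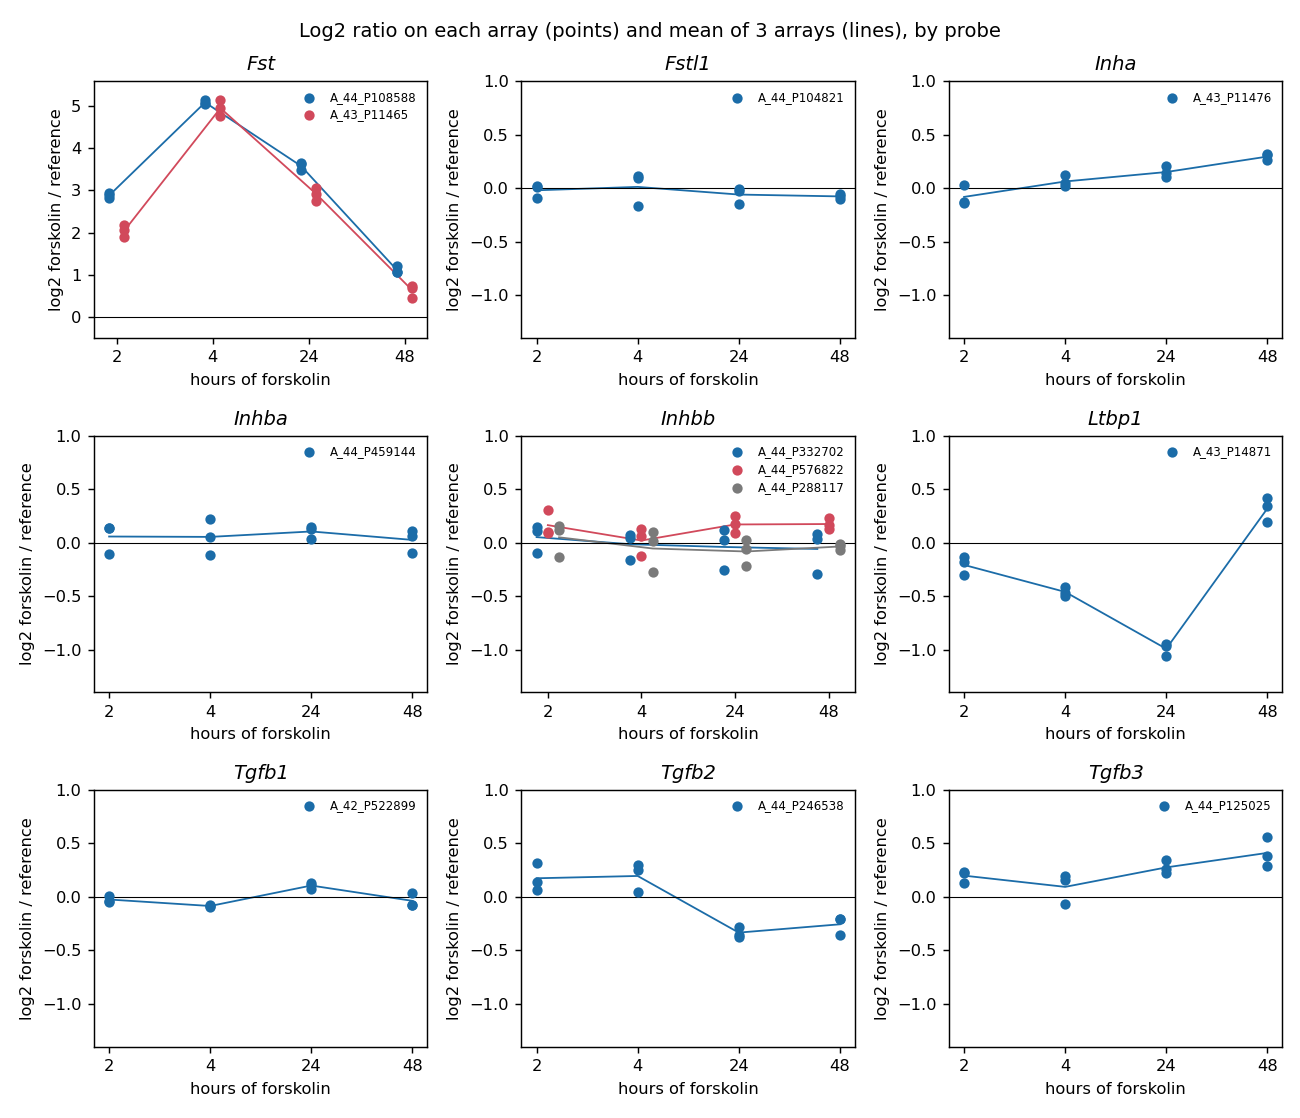
Log2 ratio of forskolin over reference on each array (points) and the mean of 3 arrays (lines) for each probe of the 9 genes, against hours of forskolin at even spacing. The Fst panel has its own vertical axis and reaches 5.14, while the points of the other 8 genes, drawn on a common axis, lie between -1.06 and 0.56.

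The spot intensities before normalization show which channel moved. In green, A_44_P108588 read 1191 to 1328 at 2 h, 13171 to 13888 at 4 h, 1996 to 2675 at 24 h and 357 to 415 at 48 h, over a local background of 44.0 to 56.5. The green signal was highest on the 4 h arrays and lowest on the 48 h arrays, with no overlap between times, and no Fst spot was saturated. In red, where every array received the same reference RNA, the spot read 1288 to 1488 on the 3 arrays at 4 h and 362 to 665 on the 9 others. After the channels were scaled between arrays, its mean log2 red signal at 4 h was 1.28 above that at 2 h and 1.07 above that at 24 h. For A_43_P11465 the red intensities were 604 to 983 at 4 h and 312 to 861 on the other arrays, which overlapped, and the log2 red signal at 4 h was 0.34 above that at 2 h. The red signal of a spot thus stood highest where its green signal was highest, most so for the brighter probe. The part of this in the ratios was not tested. Taken in green alone, the step from 2 to 4 h was 3.49 for A_44_P108588 and 3.25 for A_43_P11465.

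**Figure D2:**
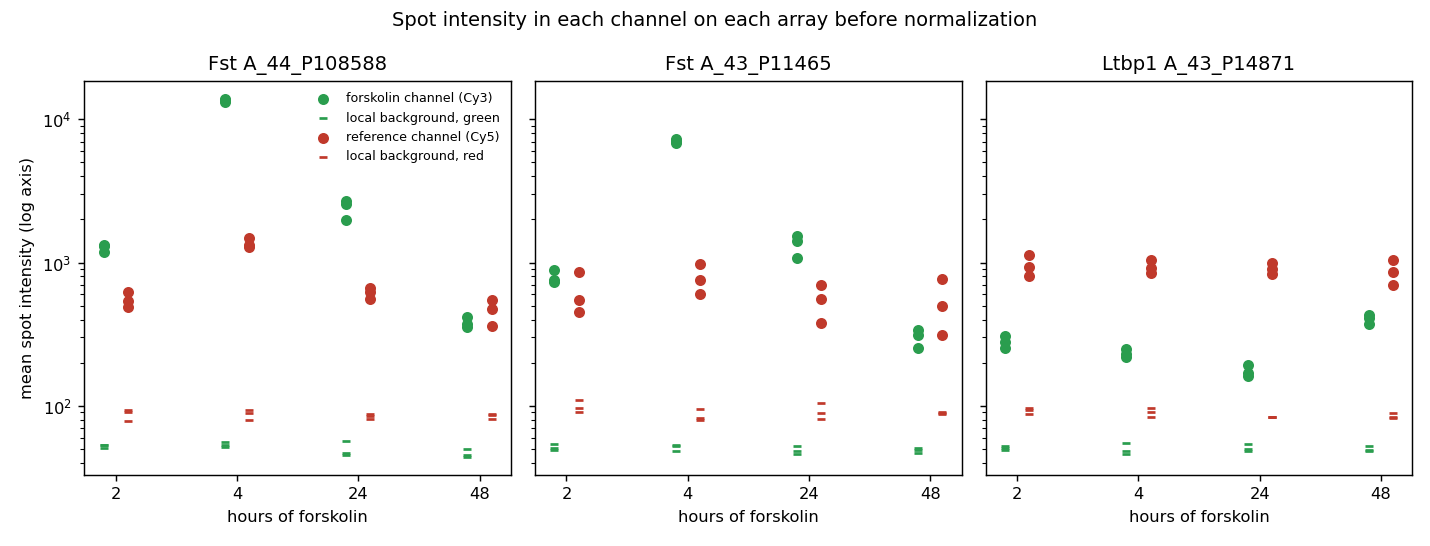
Mean spot intensity on a log axis in the forskolin channel (green points) and the reference channel (red points) of each array, with local background as short bars, for both Fst probes and the Ltbp1 probe, against hours of forskolin. The red points of A_44_P108588 lie at 1288 to 1488 at 4 h and at 362 to 665 at the other times, while those of Ltbp1 lie between 696 and 1123 throughout.

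The ratio at 4 h ranged from 3.89 to 5.21 for A_44_P108588 and from 3.80 to 5.19 for A_43_P11465 over 6 ways of correcting and scaling the intensities. Both probes were above 0 at 2, 4 and 24 h with each of them. At 48 h A_43_P11465 had a mean of 0.63 ± 0.15, and -0.15 when each array was only centred on its median, a setting in which the median of all genes at that time was -0.45.

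Fstl1, a secreted glycoprotein with a follistatin-like domain, was hardly measured. Its spot was well above background in green on 2 and in red on 3 of 12 arrays, with green intensities of 64.8 to 68.6 over backgrounds of 46.0 to 56.0. Its log2 ratios lay between -0.17 and 0.11 on all arrays and overlapped at every step. At this signal a change in Fstl1 was not detectable, and no fold is given.

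Inha, the alpha subunit of the inhibins, was dim but well above background on all 12 arrays in both channels. Its log2 ratio was -0.13, -0.14 and 0.03 at 2 h, and 0.02, 0.04 and 0.12 at 4 h. It was 0.20, 0.11 and 0.14 at 24 h and 0.31, 0.31 and 0.26 at 48 h, a mean of 0.29 ± 0.03 or 1.23-fold. The 48 h arrays lay above all arrays of the earlier times, and each earlier time overlapped the next. The 24 and 48 h means turned to -0.14 and -0.02 with median centring, which lay 0.30 and 0.43 above the median of all genes. With the scanner's processed signals the mean at 48 h was 0.75.

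Inhba, the beta A subunit, was well above background on 1 of 12 arrays in each channel. Its ratios lay between -0.12 and 0.22, with means of 0.02 to 0.10 at the 4 times, and nothing beyond the background was measured.

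Inhbb, the beta B subunit, was read by a bright probe, and its ratio stayed near 0. A_44_P332702 was well above background on all 12 arrays in both channels, with red intensities of 1674 to 3926. Its log2 ratio was -0.10, 0.11 and 0.15 at 2 h, -0.16, 0.05 and 0.07 at 4 h, -0.26, 0.11 and 0.02 at 24 h, and at 48 h -0.29, 0.04 and 0.08. The arrays of successive times overlapped throughout, and the means, 0.05, -0.02, -0.04 and -0.06, were smaller than their SDs of 0.13 to 0.20. Slide 1 was the lowest at each time. With median centring its means lay between -1.13 and -1.02. The dimmer A_44_P576822 was well above background in green on all 12 arrays and in red on 3, with means of 0.02 to 0.17, which were 0.65 to 1.01 with the scanner's processed signals. A_44_P288117 was well above background on 1 array in green and 2 in red, with means of -0.08 to 0.05.

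Tgfb1 was read by 10 spots of a single probe, which were averaged, and it moved least of the TGF-beta ligands. Its log2 ratio was -0.04, 0.01 and -0.04 at 2 h, -0.08, -0.07 and -0.10 at 4 h, 0.08, 0.13 and 0.11 at 24 h, and at 48 h -0.07, -0.07 and 0.04. The 24 h arrays stood above all others, by a mean of 0.19 over 4 h and 0.14 over 48 h. Median centring gave a 24 h mean of -0.14, still 0.31 above the median of all genes. Green intensities were 76.1 to 88.7 over backgrounds of 46.5 to 52.0, so these ratios came from a dim spot.

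Tgfb2 stood slightly above the reference early and below it late. Its log2 ratio was 0.32, 0.14 and 0.07 at 2 h and 0.30, 0.25 and 0.04 at 4 h. It was -0.37, -0.35 and -0.28 at 24 h and -0.20, -0.35 and -0.21 at 48 h. The early times overlapped each other, as did the late ones, while no late array reached an early one. The mean was 0.20 ± 0.13 at 4 h and -0.33 ± 0.05 at 24 h, a difference of 0.53. Median centring put the 2 and 4 h means at -0.30 and -0.27, which lay 0.27 and 0.31 above the median of all genes. With the scanner's processed signals the mean at 24 h was -0.85.

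Tgfb3 stood above the reference at 2, 24 and 48 h. Its log2 ratio was 0.24, 0.23 and 0.13 at 2 h and -0.07, 0.16 and 0.19 at 4 h. At 24 h it was 0.35, 0.23 and 0.26 and at 48 h 0.56, 0.38 and 0.29, a mean of 0.41 ± 0.13 or 1.33-fold. The 24 h arrays lay above those of 4 h and overlapped those of 48 h. Median centring gave 0.20 at 48 h and -0.07 at 4 h, and with processed signals the mean at 48 h was 1.01.

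Ltbp1, which anchors latent TGF-beta in the matrix, stood lower than the reference to 24 h and higher at 48 h. Its log2 ratio was -0.14, -0.18 and -0.30 at 2 h, a mean of -0.21 ± 0.09. It was -0.41, -0.50 and -0.47 at 4 h, a mean of -0.46 ± 0.05. At 24 h it was -0.94, -1.06 and -0.97, a mean of -0.99 ± 0.06 or 1.99-fold lower. At 48 h it was 0.19, 0.34 and 0.42, a mean of 0.32 ± 0.12 or 1.25-fold higher. No time overlapped another. The step from 24 to 48 h was 1.31, or 2.48-fold, the second largest upward step of the 17795 genes between these times. The green channel carried it, with 160 to 194 at 24 h and 375 to 434 at 48 h, while the log2 red signal fell by 0.04. With median centring Ltbp1 was at -0.56 at 48 h, 0.10 below the all-gene median, and it was below 0 at 2, 4 and 24 h with every setting.

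The Ltbp1 promoter is shown because it was the single one of the 8 promoters matched with a full CRE. RefSeq promoters of the GRCr8 assembly, from 250 bases before to 50 bases after the start, were matched for 8 of the 9 genes, all but Fst. The search was for the letters TGACGTCA, which read the same on both strands, and for the half-site TGACG on either strand, which lies within the full element. The full element was found in 1 of 8 and the half-site in 3 of 8, namely Inha at -117, Ltbp1 at -108 and -105 and Tgfb1 at -30 relative to the start. Over all 33469 promoters of this length the full element was in 1.83% and the half-site in 21.2%. In the sequence of chr6:26177252-26177551, minus strand, the capitals mark the full element.
Ltbp1 promoter: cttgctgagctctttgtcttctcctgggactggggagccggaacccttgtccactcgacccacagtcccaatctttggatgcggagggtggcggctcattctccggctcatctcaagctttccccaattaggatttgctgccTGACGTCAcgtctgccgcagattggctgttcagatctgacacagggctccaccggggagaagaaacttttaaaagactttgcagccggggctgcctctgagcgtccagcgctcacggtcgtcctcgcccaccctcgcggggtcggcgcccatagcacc
A match describes these letters and is not a binding site. Inha and Tgfb1, with half-sites, had ratios of -0.14 to 0.31 and -0.10 to 0.13 over the arrays, and Ltbp1 had -1.06 to 0.42. Whether a match goes with the ratios was not tested. Fst, which had the highest ratios, had no promoter to search.

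In limma's fit over all genes, called at a Benjamini-Hochberg adjusted p under 0.05, the members' calls are given as a count, since these contrasts were in view when the genes were chosen. At 2 h 3 of the 7 tested were higher and 1 lower, where 28.3% of all genes were called, 10% higher and 18.3% lower. At 4 h 2 were higher and 1 lower, where 49.6% were called, 19.5% higher and 30.1% lower. At 24 h 4 were higher and 2 lower, where 53.3% were called, 24.1% higher and 29.2% lower. At 48 h 4 were higher and 1 lower, where 57.2% were called, 26.9% higher and 30.3% lower. Nothing is read from these counts. Between successive times, the 3 arrays of 4 h did not overlap those of 2 h in 3 of the 7, of which 1 was higher and 2 lower, where this held for 32.9% of all genes, 14.5% higher and 18.4% lower. From 4 to 24 h 2 were higher and 3 lower, where it held for 49.6% of all genes, 26.3% higher and 23.3% lower. From 24 to 48 h 2 were higher and 2 lower, where it held for 30.3%, 15.2% higher and 15.1% lower. The median log2 ratio of the 7 was 0.05, 0.06, 0.11 and 0.29 at the 4 times, and that of all genes lay between -0.03 and -0.02.

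The rest of the pathway was read through 6 lists of 125 genes, of which 117 were on the array and 70 were tested. Pmepa1, Skil, Smad7 and Tgif1 are in both the Smad list and the target list, so the counts of these lists are not separate. In all lists together 19 of 70 were called at 2 h, 14 higher and 5 lower, which is 27.1% where 28.3% of all genes were called. At 4 h it was 15 higher and 21 lower, or 51.4% where the background was 49.6%. At 24 h it was 21 higher and 22 lower, or 61.4% where it was 53.3%, and at 48 h 19 higher and 26 lower, or 64.3% where it was 57.2%. These shares of all genes are also the background for the counts of each list below. The median ratio of the 70 genes was 0.02, -0.07, -0.03 and -0.03. When each array was only centred on its median, the split between higher and lower turned to 6 and 50 at 2 h, 4 and 57 at 4 h, 3 and 52 at 24 h, and 4 and 50 at 48 h, with the median of all genes at -0.57, -0.58, -0.45 and -0.45.

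**Figure D3:**
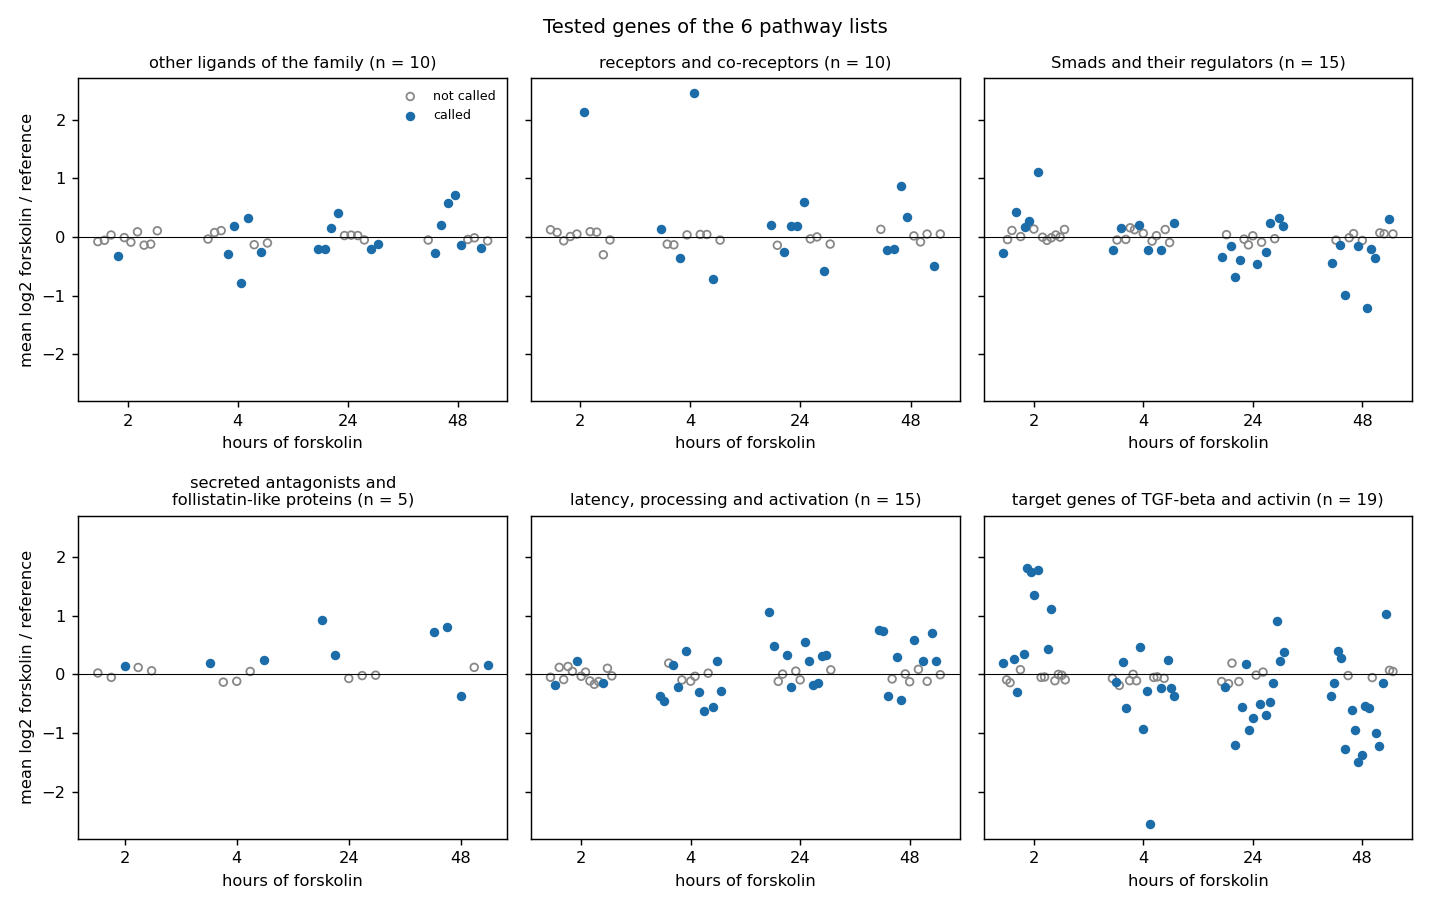
Mean log2 ratio of forskolin over reference for each tested gene of the 6 pathway lists, against hours of forskolin, with filled points for genes called at an adjusted p under 0.05 and open points for the rest. The target genes spread widest, from 1.82 at 2 h down to -2.55 at 4 h, which is the brighter Klf10 probe, while its other probe read -0.55. Of their 19, 12 were called lower at 48 h, where 30.3% of all genes were.

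Other ligands of the family were tested for 10 of 25 genes, and 11 more on the array did not pass the filter. Of the 10, 1, 5, 6 and 6 were called at the 4 times. Gdf15, a stress-induced ligand, fell by 0.79 at 4 h, with arrays at -0.81, -0.82 and -0.74 (limma adjusted p = 4.2e-09), and was at 0.03 ± 0.03 at 24 h. Gdf1 was lower at 2 and 4 h (-0.33 ± 0.17 and -0.29 ± 0.12) and higher at 24 and 48 h (0.41 ± 0.10 and 0.58 ± 0.19), although with median centring the late means were -0.51 and -0.39. Its call at 2 h was lost without replicate 1 of that time. Gdf11, a close relative of myostatin, was higher at 48 h by 0.72 ± 0.08 with its brighter probe, turned to -0.21 with median centring, and was at 0.15 with its other probe. Gdf5 was higher at 4 h by 0.32 ± 0.10, and by 1.00 with the scanner's processed signals.

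Among receptors and co-receptors, 10 of 17 genes were tested, and 1, 4, 6 and 5 of them were called at 2, 4, 24 and 48 h. Bambi, a pseudoreceptor without a kinase domain that damps signalling, rose with arrays at 2.27, 2.01 and 2.14 at 2 h and 2.60, 2.34 and 2.43 at 4 h, a mean of 2.46 ± 0.13 (limma adjusted p = 1.4e-12). It was at 0.60 ± 0.07 at 24 h, where median centring gave -0.36, and at 0.02 ± 0.08 at 48 h. Tgfbr1, the type I receptor of TGF-beta, was lower at 4 h by -0.72 ± 0.04 (limma adjusted p = 0.00024), 24 h and 48 h with its brighter probe, while its other probe read 0.06, -0.20 and -0.07 at these times. Acvrl1, a type I receptor, was lower at 4 h (-0.36 ± 0.01) and higher at 24 and 48 h (0.19 ± 0.03, which turned to -0.32 with median centring, and 0.87 ± 0.07). Amhr2, the type II receptor of anti-Müllerian hormone, was at 0.33 ± 0.14 at 48 h, where its red spot was well above background on 1 of 3 arrays and the processed signals gave 1.43. The activin type II receptors Acvr2a and Acvr2b, named after their values were seen, were lower at 48 h by -0.21 ± 0.11 and -0.21 ± 0.08. Processed signals gave -1.13 and -0.60 for this pair, -1.54 for Tgfbr1 at 4 h, and for Acvrl1 -0.78 at 4 h and 1.31 at 48 h. In green, Acvr2a was well above background on 1 of 3 arrays at 48 h. With median centring its 48 h mean was -0.29, which lay 0.16 above the median of all genes, while that of Acvr2b was -0.57, 0.11 below it. The call for Acvr2a was lost without replicate 1 or replicate 3 of 48 h (adjusted p = 0.069 and 0.067) and that for Acvr2b without replicate 1 or 2 (0.052 and 0.096).

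Of the Smads and their regulators, 15 of 19 were tested, and 5, 6, 9 and 8 were called at the 4 times. Smad7, the inhibitory Smad that blocks the receptors, was higher at 2 h, with arrays at 1.07, 1.13 and 1.13, and lower at 48 h, with arrays at -1.41, -1.18 and -1.04 (limma adjusted p = 1.5e-08 and 4.7e-10), the former a call lost with median centring. Skil, a co-repressor of Smad complexes, was higher at 2 h by 0.43 ± 0.04, where median centring gave -0.41, and lower at 48 h by -0.99 ± 0.09, or -1.61 with processed signals. Its other probe read 0.29 and -0.09 at these times. Foxh1, a partner of Smads on DNA, was lower at all 4 times, by -0.28, -0.22, -0.34 and -0.44, values that were -0.56, -0.54, -0.71 and -0.95 with processed signals. Smad1, a mediator of BMP signals, was lower at 24 h by -0.39 ± 0.03, and its other probe read 0.02.

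Secreted antagonists and follistatin-like proteins mostly could not be tested, with 5 of 17 tested and 1, 2, 2 and 4 called. Chrd, the BMP antagonist chordin, rose at 24 h with arrays at 0.96, 0.93 and 0.88 (limma adjusted p = 2.3e-08) and at 48 h to 0.72 ± 0.17, while its other probe read 0.03 and 0.02. Crim1, a membrane protein that binds BMPs, was higher at 48 h by 0.81 ± 0.31, a call lost with median centring. Fstl3, a relative of Fst that also binds activin, was at 0.14, -0.12, -0.07 and -0.36 at the 4 times, and was lower at 48 h (limma adjusted p = 1.5e-05). Its call at 2 h (adjusted p = 0.044) was lost with 3 other settings and without any of 7 single arrays, and the value turned to -0.39 with median centring. Nbl1, a BMP antagonist, was higher at 4 h by 0.25 ± 0.07, a call also lost with median centring. With the scanner's processed signals Chrd was at 2.07 at 24 h, Nbl1 at 0.93 at 4 h and Fstl3 at -0.65 at 48 h.

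In the list of latency, processing and activation, 15 of 26 genes were tested, and 3, 10, 10 and 9 were called. Between 4 and 24 h 8 of 15 were called higher and 1 lower, where 38.7% of all genes were called, 21% higher and 17.8% lower, and the median difference was 0.36 where that of all genes was 0.00. The gene at this median, Tgfb1i1, is among the 8, and whether its function places it in this list was not checked. In this comparison the share called was 60% here and also for secreted antagonists. It was 57.9% for target genes, 46.7% for Smads, 40% for other ligands and 20% for receptors. All lists together had 20 of 70 higher and 13 lower, or 47.1%, and with median centring 20 higher and 4 lower. No count with median centring is given for this list alone. Bmp1, a protease that processes matrix proteins and chordin, went from -0.36 ± 0.04 at 4 h to 1.07 ± 0.10 at 24 h, a difference of 1.43 (limma adjusted p = 3.3e-09), and its other probe read 0.10 and 1.00. With median centring the call of Bmp1 at 24 h was lost, and that of the difference was kept. Emilin1, a matrix protein that holds back pro-TGF-beta processing, went from -0.46 ± 0.07 to 0.48 ± 0.06, and Pcsk6, a proprotein convertase, from -0.55 ± 0.08 to 0.32 ± 0.04. With median centring the 24 h means of Emilin1 and Pcsk6 were -0.20 and -0.74. Mmp14, a membrane matrix metalloprotease, was lower at 4 h by -0.62 ± 0.05.

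The other latent TGF-beta binding proteins tested, Ltbp3 and Ltbp4, were named after their values were seen. Ltbp3 was higher at 24 and 48 h (0.55 ± 0.07 and 0.60 ± 0.05), where Ltbp1 was at -0.99 and 0.32, and turned to -0.10 and -0.08 with median centring, 0.35 and 0.38 above the median of all genes. Ltbp4 was lower at 4 h (-0.30 ± 0.09) and higher at 24 h (0.23 ± 0.04), where median centring gave -0.63. The differences between these genes were not tested.

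Genes known as targets of TGF-beta and activin were tested for 19 of 26, and 10, 11, 13 and 15 of them were called. At 2 h 9 were higher and 1 lower, where 10% and 18.3% of all genes were called higher and lower. With median centring 6 of the 70 pathway genes were higher at 2 h and 50 lower, so the 9 did not all stay higher. At 48 h 3 target genes were higher and 12 lower, against 26.9% and 30.3%. Several of the list are also known as early cyclic AMP or serum genes, and the list is not a readout of the pathway alone. Id1 and Id2, inhibitors of helix-loop-helix factors, and Junb, an AP-1 subunit, rose at 2 h to 1.82 ± 0.04, 1.75 ± 0.01 and 1.78 ± 0.06 (limma adjusted p of 7.5e-10 or smaller). At 48 h they were lower, at -0.94 ± 0.02, -1.49 ± 0.11 and -0.54 ± 0.22. The other Id2 probes read 1.60 and 0.53 (A_44_P170710) and 1.00 and -0.17 (A_44_P177058) at 2 and 4 h, and between -0.61 and -0.95 later. Klf10, a zinc finger factor induced by TGF-beta, was at -2.55 ± 0.07 at 4 h (limma adjusted p = 1.4e-13), while its other probe read -0.55, so the size of its fall depends on the probe.

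**Figure D4:**
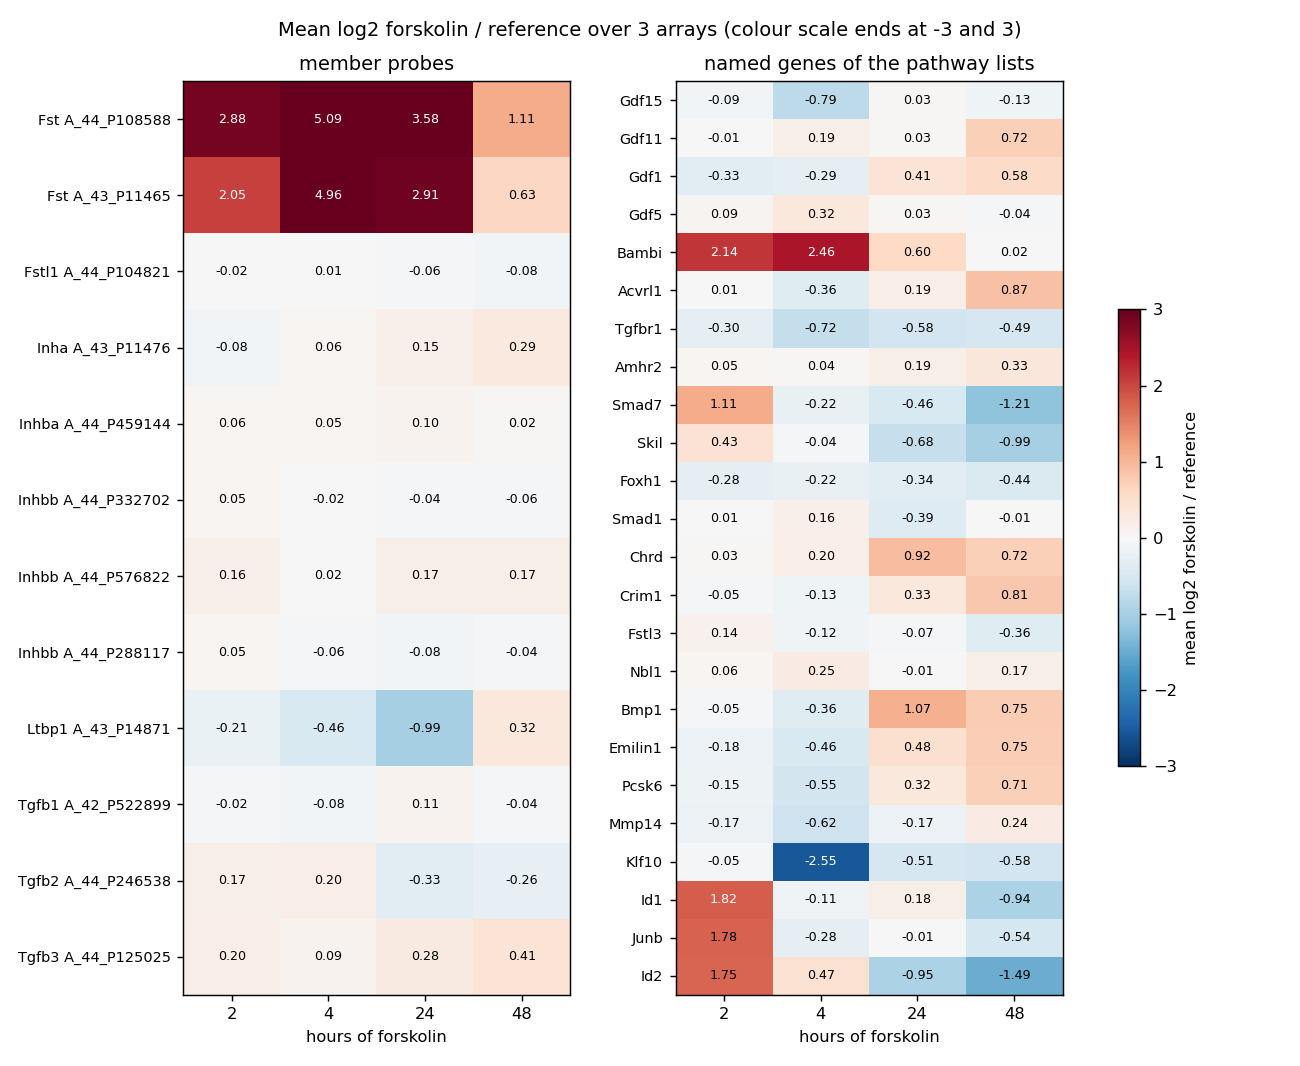
Mean log2 ratio of forskolin over reference over 3 arrays at 2, 4, 24 and 48 h for the 12 member probes (left) and the 24 named genes of the pathway lists (right), in red where higher and blue where lower, with colours ending at 3 and -3. Both Fst probes peak at 4 h, at 5.09 and 4.96, and Ltbp1 goes from -0.99 at 24 h to 0.32 at 48 h, or from -1.73 to -0.56 with median centring.

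The genes most like Fst over the 12 arrays were sought among 567 tested genes whose time means spanned at least 1 log2 unit, by Pearson's r with the log2 ratios of A_44_P108588. The 12 points fall into 4 times, and they share arrays and normalization, so r is a description. The 5 highest were Ets2 (r = 0.946), Sar1a (0.937), Jade1 (0.935), Txnrd1 (0.933) and Alg13l1 (0.914). Ets2, a transcription factor, had means of 0.93, 1.68, 0.94 and 0.50 at the 4 times. Txnrd1, a thioredoxin reductase, had means of 0.07, 0.60, -0.16 and -0.73. It was highest at 4 h and lowest at 48 h, as Fst was, around a lower level. For Txnrd1, Sar1a, Jade1 and Alg13l1 the 2 h mean was above the 24 h mean, the reverse of Fst. Ets2, Jade1, Txnrd1 and Alg13l1 had further kept probes, whose values are not given. With the other Fst probe the 5 values of r lay between 0.898 and 0.967, and over 6 settings the lowest was 0.886.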

How the data were processed

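RNA of F11 cells was measured on 12 two-colour Agilent rat arrays. Each deposited scanner file holds mean spot intensity and median background intensity in both channels for 45018 spots (Feature Extraction 9.5.1.1, build rn3, per the file headers). The authors' own log2 values are in the deposited series matrix. Their processing notes, from the submitters, name limma with no version, and no source used here gives their normalization. Against the scanner values they ran as red over green (column medians 0.007 to 0.012), opposite to the direction used here, and lack 170 spots.

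Here, intensities were corrected with normexp (offset 50) and normalized by loess (limma 3.58.1, R 4.3.3), without control spots and spots flagged as outliers. Probes well above background in either channel on all 3 arrays of any time were kept (20616). The brightest kept probe stood for each of 17795 genes. RefSeq names (GRCr8) were found for 20037 of 41012 probes.

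A mean per time was fitted to the 12 arrays (lmFit, eBayes, 8 residual degrees of freedom) and tested against 0, and 24 h against 4 h. The members, the lists and the rules were chosen with earlier results of these data known. Named were all member probes, up to 4 called genes a list with the largest change, and the 5 genes most like Fst. On simulated ratios for 24 h, 94% of 100 genes changed by 0.5 and 100% of those changed by 1 were recovered, and 11 unchanged genes were called, among 17795 genes in all. For 24 h against 4 h these were 83%, 100% and 9. The data had far more called genes than the simulation changed, 53.3% at 24 h and 38.7% for 24 h against 4 h. These rates need not carry over to them. Replicates of a time correlated at 0.607 to 0.940 across genes. Alternatives were no background correction, offset 0, median centring, Agilent's processed signals, the series matrix, no filter, the mean of all probes, a replicate block and leaving out each array. The number of arrays and dim signals limit the precision.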

Additional observations from a re-analysis of the deposited data

Results flagged for a closer look

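The Ltbp1 log2 ratio was below 0 on all 3 arrays at 24 h and above 0 on all 3 at 48 h, a difference of 1.31 that was not tested. In the same way Tgfb2 was above 0 on all arrays at 4 h and below 0 on all at 24 h, a difference of 0.53. Tgfb1 was below 0 on all arrays at 4 h and above 0 on all at 24 h, a difference of 0.19. Both differences were part of limma's fit over all genes. Their results are not given, since these genes were chosen with the ratios in view. With median centring the 48 h mean of Ltbp1 was -0.56, the 4 h mean of Tgfb2 -0.27 and the 24 h mean of Tgfb1 -0.14, so that none of these changed sign between the times.

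Among the 70 other pathway genes tested, 11 were called in opposite directions at 4 and 24 h, with a called difference between the times in limma. Of all genes, 49.6% were called at 4 h and 53.3% at 24 h. The share of all genes called in opposite directions was not counted, so nothing is read from the 11. The 24 h mean was above the 4 h mean by 0.71 for Gdf1, 0.55 for Acvrl1, 1.43 for Bmp1, 0.94 for Emilin1, 0.86 for Pcsk6 and 0.53 for Ltbp4, and for Id2 the difference was -1.42 (adjusted p-values of 9.6e-05 or smaller). The difference was 0.55 for Furin, 0.74 for Timp1, 0.46 for Tgif1 and -0.32 for Ski, 4 genes outside the naming rule (adjusted p-values of 0.0094 or smaller). With median centring 0 of the 11 were called in opposite directions, since the 24 h means were then -0.51 for Gdf1, -0.32 for Acvrl1, -0.20 for Emilin1, -0.74 for Pcsk6, -0.63 for Ltbp4, -0.33 for Furin, -0.16 for Timp1 and -0.44 for Tgif1, the 4 h means were -0.65 for Id2 and -0.95 for Ski, and Bmp1 was not called at 24 h. The other Id2 probes, A_44_P170710 and A_44_P177058, read 0.53 and -0.17 at 4 h and -0.61 and -0.74 at 24 h. The other Bmp1 probe read 0.10 at 4 h and 1.00 at 24 h, and the other Emilin1 probe -0.45 and 0.48.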

How the results depend on the processing

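Median centring turned the sign of 14 of 48 member values and of 31 of 112 named pathway values, 19 of them called. The other settings of background and normalization turned at most 3 and 5, none called and each within 0.056 of 0. Median centring gave 56 called pathway genes at 2 h against the reference in place of 19, and 61 pathway genes at 4 h against the reference in place of 36. Over all genes it gave 13738 in place of 5044 at 2 h and 13890 in place of 8831 at 4 h. Among called pathway genes at 24 h against 4 h it raised the share that were higher from 60.6% to 83.3%, and among all called genes from 54.1% to 79.5%. Among means that turned negative with it were, for the members, Fst A_43_P11465 at 48 h (-0.15), Inha at 24 h (-0.14) and 48 h (-0.023), Ltbp1 at 48 h (-0.56), Tgfb1 at 24 h (-0.14) and Tgfb2 at 2 h (-0.30) and 4 h (-0.27). Ligands and receptors among them were Gdf15 at 24 h (-1.02), Gdf11 at 4, 24 and 48 h (-0.83, -0.82 and -0.21), Gdf1 at 24 and 48 h (-0.51 and -0.39), Bambi at 24 and 48 h (-0.36 and -0.94) and Acvrl1 at 2 and 24 h (-0.55 and -0.32). Others were Skil at 2 h (-0.41), Smad1 at 2 and 4 h (-0.97 and -0.84), Crim1 at 24 h (-0.29), Fstl3 at 2 h (-0.39), Bmp1 at 48 h (-0.13), Emilin1 at 24 h (-0.20), Pcsk6 at 24 and 48 h (-0.74 and -0.41), Mmp14 at 48 h (-0.50), Ltbp3 at 2, 24 and 48 h (-0.66, -0.10 and -0.080), Ltbp4 at 24 and 48 h (-0.63 and -0.80), Id1 at 24 h (-0.84) and Id2 at 4 h (-0.65). The cause was not tested. Leaving out each array in turn gave 13 to 20, 30 to 39, 34 to 46 and 37 to 46 called pathway genes at the 4 times and 29 to 36 between 24 and 4 h. Arrays of a number shared a slide. With the replicate number as a block the counts were 22, 43, 48, 46 and 37; 134 of the other values kept their call, 0 lost it, and 6 gained it (Tgfbr1 at 2 h, Smad1, Fstl3 and Id1 at 4 h, Acvr2a at 24 h, Gdf11 between 4 and 24 h). Within slides, all 33 pathway genes called between 24 and 4 h kept their sign on the 3 slides, as did 17 of the 37 not called. The 33 were called on these same differences, so their shared sign is no separate support. Deviations of arrays with the same number correlated at 0.05 to 0.47, over 0.1 in 14 of 18 pairs, and 7 of 12 arrays correlated best with their own number. The fit without the block stands for all calls given. The processed signals moved 39 of 48 member values by more than 1 SD; the cause was not tested.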
